A study of Mus musculus with 30 samples.

Results

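Which transcript of a gene is used was compared between day 25 (D25) and day 10 (D10) of retinal organoid differentiation from mouse induced pluripotent stem cells (iPSCs). The genes described are those with at least 10 CPM (counts scaled to a common library total) in all 6 libraries of these days and at least 2 transcripts that reach a mean share of 5% of the counts of their gene on a day. This rule held for 5839 of 45594 gene identifiers. Of 9368 identifiers at the CPM minimum, 1963 had a single listed transcript and 1566 had fewer than 2 at 5%. The members held 18189 transcripts at 5% or more, with a median of 3 and at most 11 per gene, and requiring the 5% of both transcripts on the same day gave the same 5839. Of the members, 52 identifiers stood for 26 genes that the table lists under 2 identifiers with equal counts. Helb and Col26a1 lay just inside the CPM minimum (lowest library 10.04 for both), Fbxo5 (9.99) and Trmt44 (9.96) just outside.

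All organoids came from 1 iPSC clone without a knockout, made from E14.5 fibroblasts of wild-type Nrl-GFP mice with doxycycline-inducible lentiviral Oct3/4, Sox2, Klf4 and c-Myc. In these mice the promoter of the rod gene Nrl drives a green fluorescent protein. Neural retina was dissected from 20 organoids per library at D10 and from 12 at D25, with 3 libraries on each day that the labels call biological replicates. Cultures were kept in 5% oxygen up to D10, and from then on in 20% oxygen and a medium with taurine, 9-cis retinal and insulin-like growth factor 1, so that age and culture cannot be told apart. RNA was poly(A)-selected, and libraries were stranded. Nothing says that the replicates came from separate differentiations, so p-values measure the spread between these libraries.

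One gene can give several messenger RNAs by use of other start sites, other ends or other exons. A cassette exon is an internal exon that is either kept or skipped. Neurons keep many very short cassette exons, called microexons, most of which are multiples of 3 and add a few amino acids without shifting the reading frame. Srrm4 and its relative Srrm3 promote their inclusion, and Ptbp1 represses many neuronal exons in dividing progenitors. Photoreceptors use further isoforms of their own in genes of the cilium, the outer segment and the ribbon synapse, and Msi1 is known to act on several of them.

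The 6 libraries held 17.4 to 20.85 M estimated counts, so that 10 CPM stands for at least 174 counts. Photoreceptor markers (8 genes) summed to 46.4 to 81.2 CPM at D10 and 3910 to 5900 at D25, and pigment epithelium markers (6 genes) to 1053 to 1260 and 21.1 to 36.7. Neural retina markers (6 genes) summed to 1693 to 1704 and 912 to 1267, inner retinal neuron markers (7 genes) to 166 to 188 and 438 to 615, markers of astrocytes or Müller glia (5 genes) to 617 to 630 and 460 to 630, and fibroblast markers (6 genes) to 41.0 to 65.4 and 9.55 to 49.7. Lens and blood markers stayed at or under 1.91 CPM, and Rpe65, a defining gene of mature pigment epithelium, was at 0 in 5 libraries and at 0.052 CPM in the other. The inner retinal neuron sum rested mainly on Tfap2b (3.38 to 9.00 CPM at D10, 298 to 450 at D25). Gad2 and Slc32a1 also rose, Pou4f2, Isl1 and Onecut1 fell, and Prox1 overlapped between the days. In the glial sum Glul fell (527 to 538 CPM, then 277 to 373), while Rlbp1, Slc1a3, Aqp4 and Gfap rose. The rod genes Nrl and Nr2e3 were under 1 CPM in every D10 library. In such bulk libraries a change in the mix of cells and a change within cells cannot be told apart, nor can fewer cells of a type and less RNA per cell. Replicate 2 of both days gave 24.2% and 24.7% of the counts of Rpl3 and its pseudogenes to the pseudogenes, the other libraries 81.8% to 85.3%, so this difference is balanced over the days.

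The exons that carried the clearest changes are shown with 12 bases of the flanking exons in lower case and the cassette exon in capitals, in the sense of the gene, from GENCODE M21 transcripts (GRCm38). The first 8 lines are exons whose inclusion moved by more than 50 percentage points. The next 4 show pairs of related genes with similar short exons, and the last 4 stand for photoreceptor and clathrin genes. All lie in annotated coding sequence.
Tenm1, 21 bases, chrX:42648394-42648414, minus strand: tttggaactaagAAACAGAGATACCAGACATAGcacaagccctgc
Slit2, 27 bases, chr5:48263641-48263667, plus strand: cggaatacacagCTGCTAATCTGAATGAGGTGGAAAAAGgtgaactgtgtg
Exoc1, 21 bases, chr5:76540747-76540767, plus strand: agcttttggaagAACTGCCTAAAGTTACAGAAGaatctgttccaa
Git1, 27 bases, chr11:77502829-77502855, plus strand: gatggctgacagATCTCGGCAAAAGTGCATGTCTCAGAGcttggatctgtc
Pus7, 18 bases, chr5:23763334-23763351, minus strand: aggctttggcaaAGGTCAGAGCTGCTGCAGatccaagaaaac
Nptn, 10 bases, chr9:58650509-58650518, plus strand: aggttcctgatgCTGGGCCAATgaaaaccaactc
Epb41l1, 36 bases, chr2:156511785-156511820, plus strand: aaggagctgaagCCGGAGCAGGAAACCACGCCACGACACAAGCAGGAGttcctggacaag
Prom1, 24 bases, chr5:44001270-44001293, minus strand: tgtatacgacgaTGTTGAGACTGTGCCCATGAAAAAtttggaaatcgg
Apbb1, 6 bases, chr7:105565946-105565951, minus strand: ggacagtggaagAGAGAGggactttgccta
Apbb2, 6 bases, chr5:66323602-66323607, minus strand: agacaacggccgAGAGAGggactttgctta
Ank2, 24 bases, chr3:127052226-127052249, minus strand: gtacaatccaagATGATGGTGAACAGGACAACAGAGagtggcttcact
Ank3, 24 bases, chr10:69823078-69823101, plus strand: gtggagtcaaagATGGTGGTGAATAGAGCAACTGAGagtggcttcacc
Prom1, 18 bases, chr5:44012499-44012516, minus strand: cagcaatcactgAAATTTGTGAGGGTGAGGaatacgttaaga
Ttc8, 30 bases, chr12:98937120-98937149, plus strand: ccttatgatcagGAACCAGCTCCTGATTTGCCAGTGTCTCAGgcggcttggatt
Clta, 54 bases, chr4:44030215-44030268, plus strand: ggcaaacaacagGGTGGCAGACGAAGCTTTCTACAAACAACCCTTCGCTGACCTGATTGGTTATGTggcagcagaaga
Arl6, 13 bases, chr16:59618666-59618678, minus strand: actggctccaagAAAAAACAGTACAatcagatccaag

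Short exons were included more often at D25, and this held for 132 exons of 3 to 27 bases against 8 that were included less often. Inclusion is the percentage of counts from transcripts that hold the exon among those that hold or skip it, and was tested with limma on the log2 ratio of both sums (Benjamini-Hochberg adjustment, adjusted p below 0.05). Over all genes, 697 of 6970 cassette exons were called (10%, with 6.77% higher and 3.23% lower at D25), and in the members 621 of 4975 (12.5%), of which 431 were higher and 190 lower. Among members' exons of 3 to 27 bases, 140 of 322 were called (43.5%) in 110 genes, against 140 of 766 of those of 28 to 60 bases, and 8.8% both of those of 61 to 150 bases and of longer ones. Direction followed length in the same way: 116 of 140 called exons of 28 to 60 bases were higher, 134 of 238 of those of 61 to 150 bases, and 49 of 103 of the longer ones. The 140 called microexons rested on 135 distinct sets of transcripts, since neighbouring exons can share theirs. Of the microexons called, 118 (84.3%) had a length that is a multiple of 3, against 255 of 322 tested (79.2%). To be tested, an exon needed a mean inclusion of 5 to 95% on D10 or on D25, so some entered through a single day. Restricted to exons within 5 to 95% on both days, 100 of 246 microexons were called (40.7%), 95 higher and 5 lower. Of all member exons under this restriction, 452 of 4011 were called (11.3%), 309 higher and 143 lower. Among the 8 less included microexons, picked here after their values were seen, a 12-base exon of the calcium channel gene Cacna1e went from 19.4% to 0% (adjusted p = 0.00442) and a 27-base exon of Myo6, a myosin motor, from 32.27% to 16.04% (adjusted p = 0.0227).

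**Figure D1:**
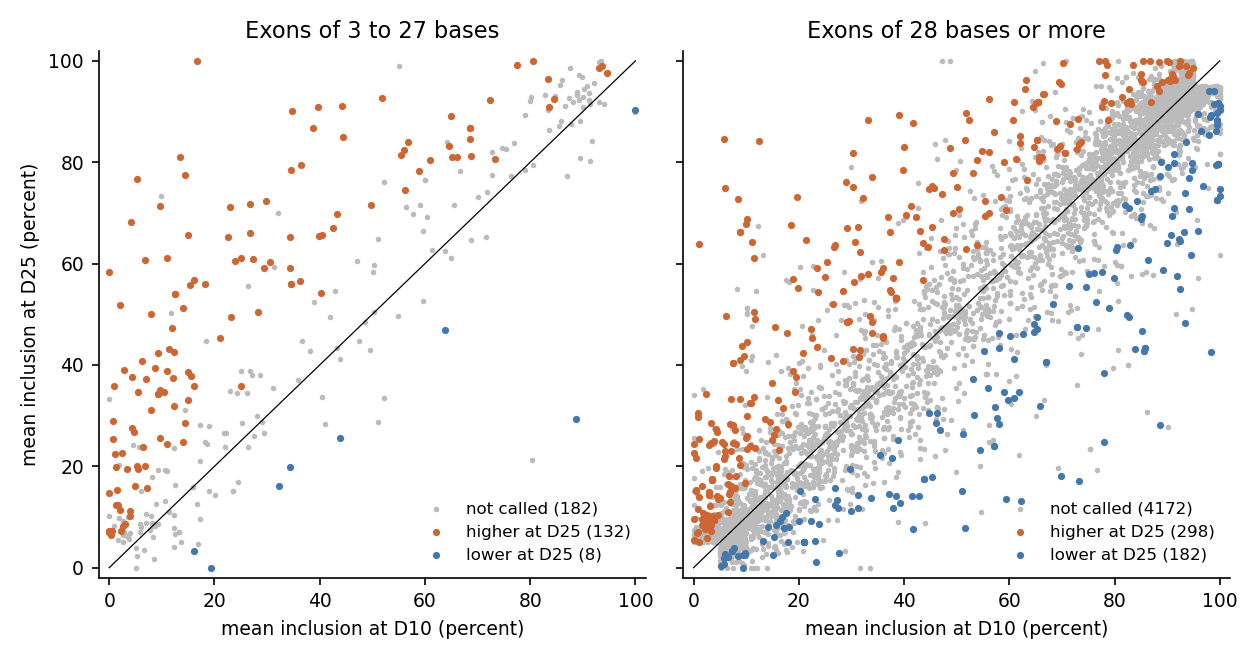
Mean inclusion of each cassette exon of the member genes at D10 (horizontal, percent) and D25 (vertical, percent), for exons of 3 to 27 bases and longer ones. Each point is an exon, coloured where it was called, and the line marks equal inclusion; 132 microexons lie above it as called and 8 below.

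**Figure D2:**
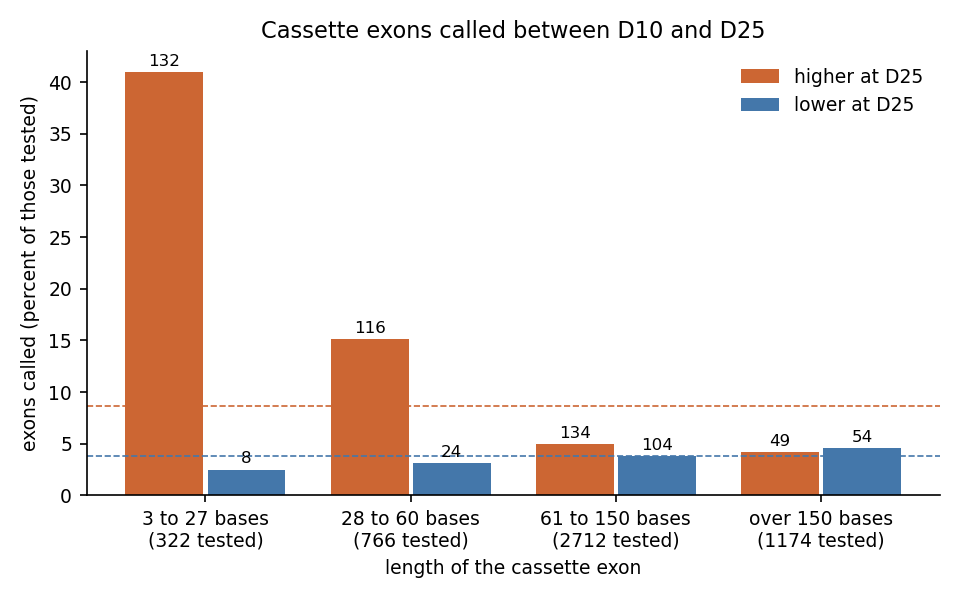
Percentage of tested cassette exons called as higher or lower at D25 by exon length, with the number called above each bar. Dashed lines give the percentages over all member exons (8.66% higher and 3.82% lower); the bar of higher microexons stands apart.

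The median inclusion over all tested microexons was 26.6%, 24.3% and 24.5% in the D10 libraries and 44.3%, 50.7% and 44.6% at D25. That of exons of 61 to 150 bases was 66.5%, 67.3% and 68.2% at D10, and 68.0%, 68.0% and 68.8% at D25. The days did not overlap for microexons and overlapped for exons of 61 to 150 bases. They did not overlap either for exons of 28 to 60 bases (35.2 to 36.2% at D10, 43.0 to 46.0% at D25), nor for exons over 150 bases, whose medians were lower at D25 (62.1 to 62.9%, then 58.8 to 61.7%). A called microexon moved by a median of 23.1 points, 82 moved by at least 20 points and 12 by at least 50 points. Without D25 replicate 2 the call count fell from 621 to 385 exons and that of higher microexons from 132 to 85, and without replicate 2 of both days 204 and 60 remained called.

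Of the 106 genes with a more included microexon, the total level rose in 47, fell in 30 and was not called in 29. The share with changed level among all members was 61.3% (3578 of 5839, edgeR), against 58.7% of all 17101 genes tested. By direction, 1754 of 5834 members tested for usage rose (30.1%) and 1821 fell. More included microexons were counted in genes that rose and in genes that fell, with rising genes more frequent than among these members. A relation between inclusion and gene level was not tested.

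Tenm1 encodes a teneurin, a transmembrane protein of axon targeting. Inclusion of its 21-base exon was 23.0%, 9.67% and 17.5% in the D10 libraries and 100.0% in each D25 library (log2 ratio change 12.01 ± 0.87 SE, adjusted p = 0.00077). Slit2, the secreted axon repellent that binds Robo receptors, went from 6.76%, 4.93% and 4.22% to 78.7%, 81.0% and 70.1% for its 27-base exon (5.92 ± 0.30, adjusted p = 0.0003). Every D25 library lay above every D10 library in both, while total Slit2 fell (192 to 108 CPM, log2 change -0.82, adjusted p = 5.1e-05).

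Exoc1, a subunit of the exocyst that tethers secretory vesicles, had a 21-base exon in 2.17%, 4.66% and 5.70% at D10 and 65.3%, 74.7% and 64.5% at D25 (adjusted p = 0.00104). Its gene level was not called (69.8 and 69.4 CPM, edgeR adjusted p = 0.938), and the libraries of the days did not overlap in inclusion. Git1 encodes a scaffold for Arf and Rac signalling at adhesions and synapses. Its 27-base exon went from 11.3%, 14.4% and 17.7% to 68.4%, 86.3% and 77.7% (adjusted p = 0.00185). Pus7, a pseudouridine synthase, included 18 bases in 4.91%, 5.72% and 18.4% at D10, where replicate 3 was the highest, and in 69.4%, 70.8% and 73.8% at D25 (adjusted p = 0.00413).

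Nptn encodes neuroplastin, an immunoglobulin-type adhesion protein of synapses. Its 10-base exon was at 0 in the D10 libraries, where the 409 counts of both forms allow a share of up to 0.733%. At D25 it was in 66.0%, 54.3% and 54.6% (adjusted p = 0.00242). Forms that hold or skip it had means of 136 and 139 counts per library, in a gene at 45.4 and 87.9 CPM. They were thus a minor part of the Nptn counts, and no Nptn transcript moved by more than 15.0 points. Snx14, an endoplasmic reticulum protein of lipid handling, had a wider spread: its 27-base exon ranged from 3.796% to 24.48% over the D10 libraries (mean 13.5%) and was in 73.1%, 82.1% and 87.7% at D25 (adjusted p = 0.00927). Limits from a count of 0 cover counting error only.

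The longer exons named here were likewise chosen as those with the largest changes. The 36-base exon of Epb41l1, which links membrane proteins to actin and spectrin, was in 4.23%, 4.21% and 8.91% at D10 and 81.3%, 88.8% and 83.8% at D25 (6.58 ± 0.45, adjusted p = 0.00071). Forms that hold or skip it had means of 842 counts per library at D10 and 366 at D25. With Epb41l1 at 58.8 and 83.2 CPM, they were a minor part of its counts at D25. Cacna1g, a T-type calcium channel, included 69 bases (chr11:94439709-94439777) in 10.66%, 11.32% and 15.13%, then 80.2%, 86.8% and 85.4% (adjusted p = 0.00032). In Clip2, a microtubule plus-end protein, a 105-base exon (chr5:134504734-134504838) went from 7.25%, 4.22% and 13.8% to 68.5%, 76.4% and 73.3% (adjusted p = 0.00187). Wdr35, a part of the transport complex inside cilia, included 33 bases in 6.12%, 8.84% and 15.5%, then 57.9%, 78.3% and 70.0% (adjusted p = 0.00309).

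**Figure D3:**
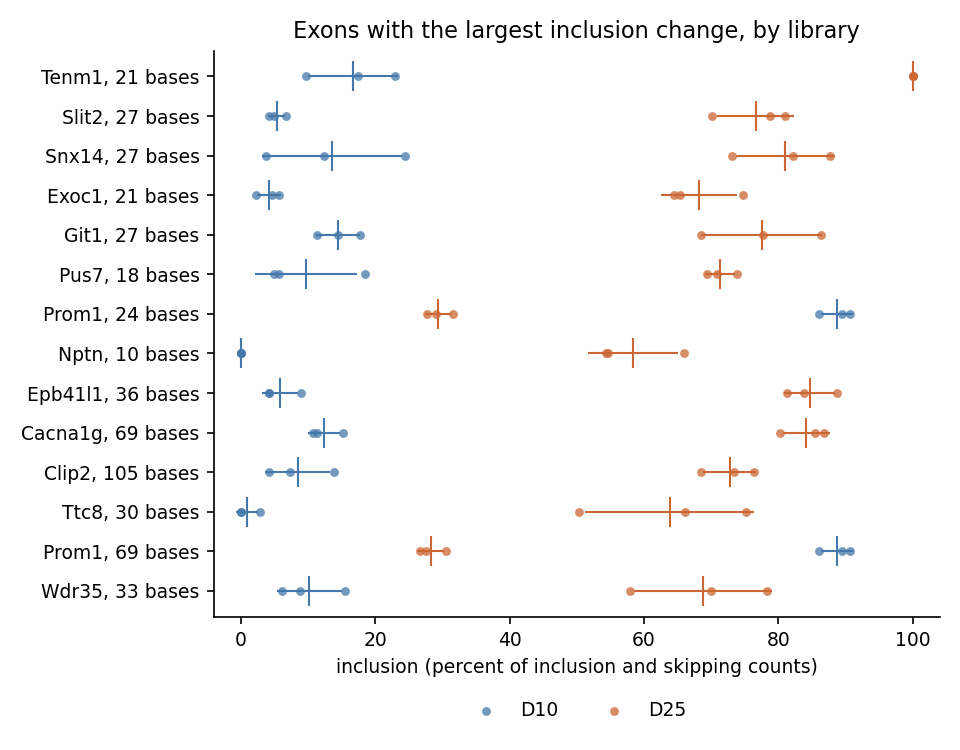
Inclusion (percent) of the 8 microexons and 6 longer exons with the largest change among those called, predicted genes passed over. Points are libraries, bars the mean and SD of 3 libraries. For each exon the D10 and D25 libraries do not overlap, which goes with their choice by size of change and is no further support. In Prom1 2 exons fall, while the others rise.

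Seen over all 30 libraries of the series, the median inclusion of the same microexons was 16.7 to 19.4% at D0, 20.6 to 26.0% at D7, 26.4 to 30.4% at D12, 37.3 to 39.4% at D18, 41.7 to 43.8% at D22 and 46.4 to 49.6% at D32. D25 (44.3 to 50.7%) and D32 overlapped. Single exons differed in time course. Mean inclusion of the Slit2 microexon was 19.5% at D12, 34.5% at D18 and 74.0% at D22, whereas the 15-base exon of Abi1 was already in 52.4% at D12 and in 84.2% at D22. The Ttc8 exon was in 4.201% at D15, 25.9% at D18 and 63.3% at D22. These exons were selected on D10 and D25, which makes the other days a description.

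**Figure D4:**
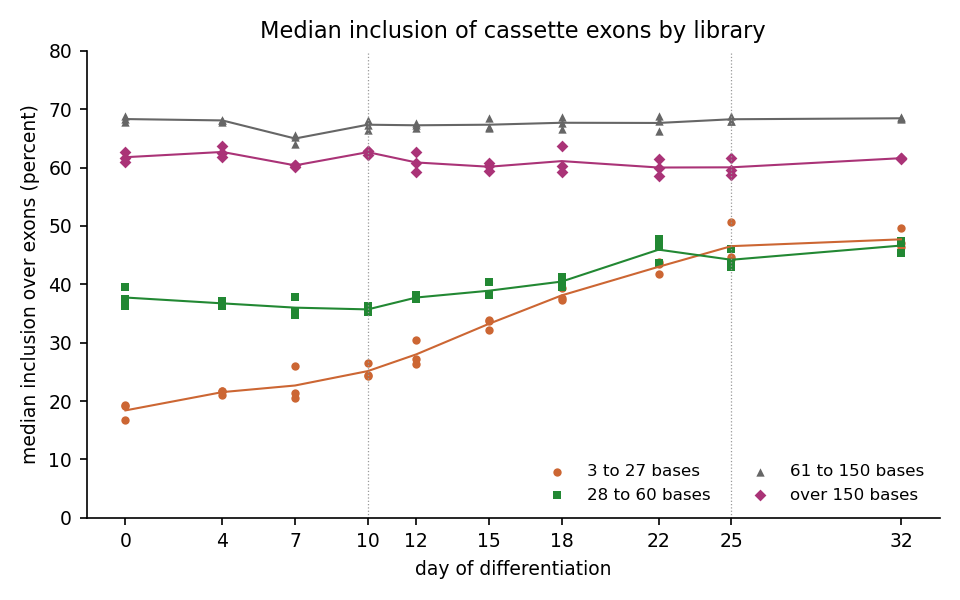
Median inclusion (percent) over the tested cassette exons of each length class by day of differentiation, 1 point per library and a line through the mean of 3. Dotted lines mark D10 and D25; microexons go from 24.3 to 26.6% at D10 to 44.3 to 50.7% at D25, while exons of 61 to 150 bases stay between 64.1 and 68.8% on all days.

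At the level of whole transcripts, edgeR called a changed usage in 653 of 9189 genes tested (7.11%) and in 518 of 5834 members (8.88%). Of these, 383 had a transcript whose mean share moved by at least 10 percentage points, and in 151 the most abundant transcript was another one on D25. A second test, chosen after seeing the data, was limma on the log2 ratio of each transcript to the rest of its gene. In simulated data 41.2% of edgeR calls were false, against 6.6% of calls by both tests with 10 points. Both tests and a move of 10 points were met by 345 of 9189 genes (3.75%) and by 286 members (4.9%), and only these genes are called changed below. Leaving out D25 replicate 2 brought the 286 to 142, and leaving out D10 replicate 1 to 171. Without replicate 2 of both days, edgeR called 477 members, and none passed both tests (the log-ratio test gave 1048 at an unadjusted p below 0.05). In 125 of the 286 the leading transcript was replaced, in 153 the largest move was at least 25 points and in 26 at least 50 points, with a median of 26.4 points against 5.64 over all members tested.

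The percentage of changed genes differed between lists of genes by role. The lists were chosen with earlier results of these data known, so these percentages are a description and not an independent test. Microexon and neuronal splicing targets held 28 changed of 63 members tested (44.4%, median largest move 16.3 points) and photoreceptor and retina isoform genes 16 of 31 (51.6%, 20.0 points). Cytoskeleton, adhesion and axon genes held 13 of 37 (35.1%) and synapse and membrane traffic genes 14 of 40 (35%). Transcription and chromatin factors (5 of 54), splicing regulators (4 of 46) and energy metabolism (2 of 30) lay nearer to the 4.9% of all members. No gene of cell cycle and replication (33 members) or of the cytosolic ribosome (34 members) was changed by this rule; edgeR alone called 2 in each, the log-ratio test 2 in each, and an unadjusted p below 0.05 was reached by 6 and 4 genes in edgeR and by 7 and 10 in the log-ratio test.

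**Figure D5:**
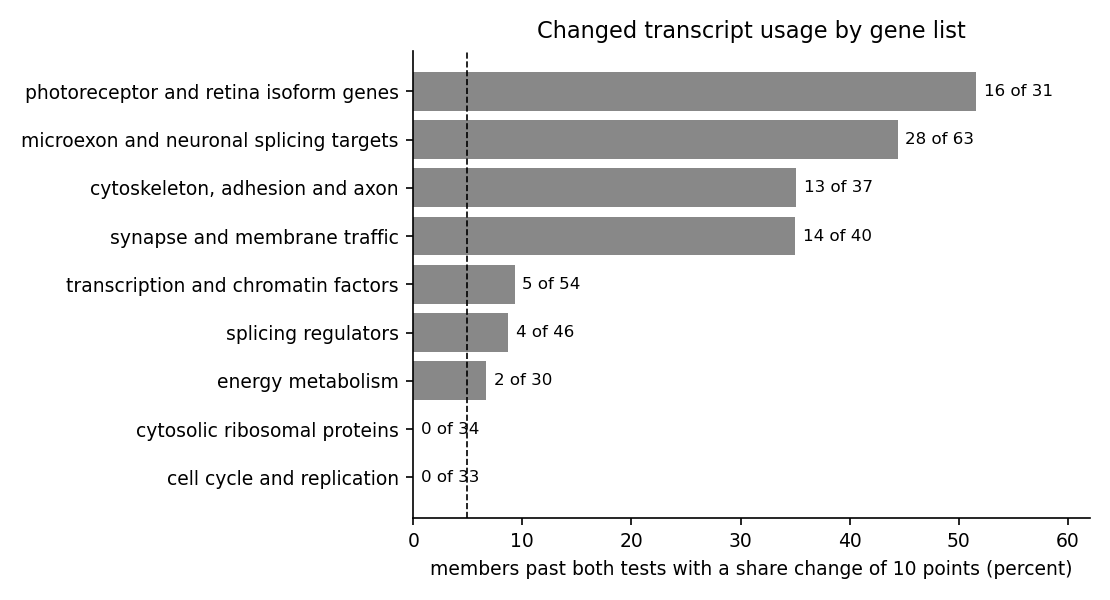
Percentage of the tested members of each gene list that passed both tests with a share change of at least 10 points, with the counts beside the bars. The lists were chosen with earlier results of these data known. The dashed line is the value over all 5834 members tested (4.9%); 4 lists of neuronal, photoreceptor, cytoskeletal and synaptic genes lie at 35% or above.

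Among the neuronal splicing targets, a list chosen with earlier results of these data known, 27 of 43 microexons tested were more included at D25 and none less. In genes of no list the counts were 84 and 7 of 247. Sptan1, listed with the cytoskeleton, encodes alpha-II spectrin, and its 15-base exon (chr2:30014158-30014172) went from 42.2%, 42.4% and 48.4% to 91.9%, 93.3% and 87.8% (adjusted p = 0.00072). Abi1, of the complex that drives actin branching, went from 35.8%, 38.6% and 41.8% to 88.3%, 89.7% and 82.4% for 15 bases (adjusted p = 0.00126). Phf21a, a reader in the Lsd1 complex, had its 23-base exon in 11.9%, 20.1% and 16.1%, then 57.8%, 64.8% and 48.0% (adjusted p = 0.00376). In all 3 genes every D25 library lay above every D10 library.

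Pairs of paralogs with like exons were each called as higher at D25, and the difference within a pair was not tested. The AGAGAG exon of Apbb1, an adaptor of the amyloid precursor protein, was in 58.8%, 34.0% and 62.9% at D10 and in 93.1%, 92.2% and 92.7% at D25 (adjusted p = 0.00442). The exon of the same 6 letters in Apbb2 was in 11.3%, 11.7% and 9.77%, then 27.1%, 25.4% and 20.6% (adjusted p = 0.0249). The 24-base exons of the ankyrins, which anchor membrane proteins to spectrin, went from 84.4% ± 2.72 to 92.5% ± 0.549 in Ank2 and from 2.70% ± 0.800 to 8.16% ± 0.952 in Ank3 (SD, n = 3, adjusted p = 0.019 and 0.0141). Abi2, the relative of Abi1, included 18 bases in 12.05% ± 2.59 at D10 and 37.4% ± 4.97 at D25 (adjusted p = 0.0041).

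Src, whose neuronal form carries extra residues in the SH3 domain, included an 18-base exon in 18.26%, 23.86% and 21.23% at D10 and in 40.3%, 51.0% and 44.5% at D25 (adjusted p = 0.00675), but its transcripts did not pass (edgeR adjusted p = 0.759). Mef2d, a muscle and neuron transcription factor, moved from 3.06% ± 0.667 to 8.58% ± 1.19 for a 21-base exon (adjusted p = 0.0116) in a gene that rose from 59.7 to 402 CPM. Nrcam, an axonal adhesion protein, changed, with Nrcam-201 at 25.8%, 34.9% and 39.2% of its counts at D10 and 56.1%, 57.9% and 58.1% at D25 (edgeR adjusted p = 0.042). Other genes with known isoforms had exons that were not called: a 60-base exon of Kdm1a, the Lsd1 demethylase, stood at 53.4% and 60.9% (adjusted p = 0.152; its transcripts passed both tests with a largest move of 7.18 points) and a 34-base exon of Ptbp2 at 80.02% and 80.32% (adjusted p = 0.926). Of 32 genes listed for known isoform changes, 31 were members (Mapt was not), edgeR called 19 of them and 14 passed both tests with 10 points. Over all members tested these shares were 8.88% and 4.9%.

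Several genes of the photoreceptor cilium and outer segment exchanged part of their transcripts. Ttc8 (chr12:98920574-98983238, plus strand) encodes a subunit of the BBSome, which moves membrane proteins in cilia, and its 30-base exon is the retinal form. Inclusion was 0.0110%, 2.84% and 0% at D10 and 75.2%, 66.0% and 50.3% at D25 (9.19 ± 1.37, adjusted p = 0.009). Ttc8-002, the main transcript with this exon at D25, was at 0 of 1830 counts at D10, which allows up to 0.164%, and at 70.8%, 50.5% and 42.3% at D25. Arl6, the small GTPase that recruits the BBSome, included 13 bases in 29.2%, 21.2% and 29.8%, then 70.4%, 74.3% and 70.7% (adjusted p = 0.0014).

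Prom1 (chr5:43993620-44102032, minus strand) encodes prominin, a protein of membrane edges and of the outer segment disc rim. Of its 5 cassette exons tested, 4 were called. The 24-base exon shown above fell from 89.5%, 90.6% and 86.1% to 31.5%, 29.0% and 27.6%, and the next 69-base exon (chr5:44000777-44000845) from 88.7% ± 2.37 to 28.2% ± 2.00 (both adjusted p = 0.0002); these exons shared nearly all their transcripts. The 18-base exon rose from 2.76%, 1.98% and 1.24% to 49.3%, 56.1% and 50.4% (adjusted p = 0.00036), and a 27-base exon (chr5:44058626-44058652) from 34.6% ± 6.68 to 78.4% ± 2.83 (adjusted p = 0.00137). Total Prom1 rose from 157 to 463 CPM.

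Rpgr, mutated in X-linked retinitis pigmentosa, is at the connecting cilium. Its 879-base exon was in 12.32%, 28.57% and 23.27% at D10 and in 70.95%, 75.11% and 47.82% at D25 (adjusted p = 0.0255). One transcript with this exon, Rpgr-001, was at 0 of 1834 counts at D10 (up to 0.164%) and at 46.7%, 51.0% and 23.7% at D25, so that replicate 3 was the low library. Cc2d2a, a protein of the ciliary transition zone, included a 15-base and a 21-base exon together in 33.9%, 31.2% and 38.8%, then 52.4%, 60.6% and 55.2% (adjusted p = 0.0164). Its transcripts were called by the log-ratio test (adjusted p = 0.0352) but not by edgeR (adjusted p = 0.45). Reep6, a rod protein of clathrin vesicles, had an 81-base exon in 74.6%, 85.1% and 74.7%, then 95.1%, 97.8% and 98.8% (adjusted p = 0.0179). Its transcripts were called by edgeR (adjusted p = 0.00856) but missed the log-ratio test (adjusted p = 0.0576). Neither Cc2d2a nor Reep6 is thus among the changed genes.

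Bsg encodes basigin, and its long form with a further immunoglobulin domain is made in photoreceptors. The exon of 348 bases (chr10:79708697-79709044) that marks it was in 3.47%, 3.12% and 3.49% at D10 and 28.1%, 31.2% and 26.1% at D25 (3.51 ± 0.15, adjusted p = 0.0002). Bsg as a whole stood at 501 and 554 CPM (adjusted p = 0.363), the form without the exon remaining the major one. Ctbp2 shares its gene with the ribbon synapse protein Ribeye, which starts at its own promoter. Ctbp2-004, which has another start and 2964 annotated coding bases against 1260 of Ctbp2-002, was at 0.233%, 0% and 1.12% at D10 and at 19.6%, 24.1% and 17.5% at D25 (edgeR adjusted p = 1.2e-07).

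Stx3 encodes the syntaxin of ribbon synapses. Stx3-201 was at 0 of 2534 counts at D10 (up to 0.118%) and at 25.33%, 32.47% and 35.22% at D25, while Stx3-202 fell from 75.8%, 77.3% and 76.3% to 31.9%, 23.2% and 24.3% (edgeR adjusted p = 7.1e-09). Ablim1, an actin-binding LIM protein, exchanged Ablim1-013 (58.94% ± 10.35 to 9.61% ± 4.46) for Ablim1-001 (19.9% ± 11.6 to 71.9% ± 4.97). Dmd encodes dystrophin. The full-length Dmd-001, whose annotated coding sequence has 11034 bases, rose from 10.18%, 9.272% and 9.98% to 74.7%, 80.8% and 78.0%, and the short Dmd-003 (1851 coding bases) fell from 54.7%, 58.7% and 53.8% to 5.17%, 0% and 4.01% (edgeR adjusted p = 3.7e-06). Per transcript length the Dmd-001 gain was 23.4 points, since long transcripts take more counts. Otx2, the photoreceptor and bipolar homeobox factor, was the most abundant gene of the list without a call (Otx2-001 at 46.9% and 59.8%, edgeR adjusted p = 0.0505).

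Across the list of photoreceptor and retina genes, chosen with earlier results of these data known, 45 cassette exons of any length were tested. Of these, 18 were higher and 11 lower at D25. Over all member exons 8.66% were higher and 3.82% lower. The photoreceptor marker sum moved with these groups, as did the pigment epithelium sum in the opposite direction, and their part in the isoform differences was not tested.

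In the cytoskeleton list, Clta, the light chain A of clathrin, exchanged its short form for the neuronal ones. Its 54-base exon was in 10.5%, 7.92% and 11.7% at D10 and in 63.3%, 74.6% and 65.4% at D25 (4.27 ± 0.27, adjusted p = 0.00062), and a 36-base exon (chr4:44031400-44031435) went from 0.958% ± 0.367 to 25.4% ± 5.62 (adjusted p = 0.00082). Its relative Cltb rose in level from 14.5 to 397 CPM. Its usage was called by the log-ratio test (adjusted p = 0.0402) but not by edgeR (adjusted p = 0.156). Tpm1, a tropomyosin that lines actin filaments, exchanged a pair of alternative 76-base exons, one rising from 37.4% ± 2.23 to 66.3% ± 2.09 and the other falling from 58.0% ± 2.33 to 28.3% ± 1.55 (adjusted p = 0.00147 and 0.00126). Sept6, a septin, moved from Sept6-002 (65.8% ± 1.46 to 31.9% ± 4.96) to Sept6-003 (18.29% ± 0.752 to 56.2% ± 5.38). Dpysl3, an axon growth protein, rose from 231 to 1516 CPM with its leading form kept (85.7% and 91.0%, edgeR adjusted p = 0.307).

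In the synapse and membrane traffic list, Unc13b primes synaptic vesicles for fusion, and its transcript with 13170 annotated coding bases rose from 7.57%, 7.68% and 8.23% to 59.8%, 59.6% and 52.7% (log2 ratio 3.99 ± 0.16, edgeR adjusted p = 3.3e-13; per transcript length the gain was 19.8 points). Exoc7, another exocyst subunit, exchanged Exoc7-001 (70.0% ± 6.49 to 25.6% ± 6.49) for Exoc7-003 (3.73% ± 0.798 to 49.0% ± 5.79). Atp6v0a1, of the vesicular proton pump, included 18 bases in 20.6%, 20.0% and 27.4%, then 60.4%, 73.8% and 61.4% (adjusted p = 0.00286). Snap91, a clathrin assembly protein of nerve endings, had a 6-base exon in 33.8%, 28.1% and 42.4% and then in 89.3%, 90.8% and 90.5% (adjusted p = 0.00071).

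Psap encodes prosaposin, the precursor of lysosomal activators and a secreted neurotrophic factor. Its 9-base exon was in 16.2%, 12.6% and 15.9% at D10 and in 61.1%, 73.2% and 62.5% at D25 (3.47 ± 0.24, adjusted p = 0.00076). The edgeR usage test did not call the gene (adjusted p = 0.598) and the log-ratio test did (adjusted p = 0.00281). Snap25, a SNARE protein of vesicle fusion, rose from 18.4 to 617 CPM, and its leading transcript took 55.1%, 54.2% and 62.5% at D10 and 68.2%, 67.8% and 68.2% at D25 (edgeR adjusted p = 0.0218). Its alternative pair of 118-base exons, which marks the SNAP-25a and b forms, stood at 62.9% and 69.2% and was not called (adjusted p = 0.255).

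Of 59 splicing regulators tested for level, 14 rose and 33 fell (edgeR), while over all genes, of which 58.7% were called, 5116 rose and 4930 fell. DESeq2 gave 15 and 33 regulators. For transcript usage edgeR called 9 of 46 regulators (19.6%), against 8.88% of all members. The genes named next were chosen for their known role with their values in view. Ptbp1 fell from 451, 449 and 469 CPM to 154, 136 and 181 (log2 change -1.52, adjusted p = 7.1e-06). Srrm4 rose from 77.4, 62.6 and 75.9 to 298, 387 and 280 (2.18, adjusted p = 4.1e-06), and Srrm3, which was no member, from 10.6, 8.05 and 12.7 to 34.0, 38.4 and 36.7 (1.83, adjusted p = 1.7e-05).

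Msi1 rose from 369, 314 and 387 to 488, 513 and 476 CPM (0.49, adjusted p = 0.00385), and Msi2 fell from 344 to 201 (-0.75, adjusted p = 0.00012). Celf3 rose from 66.5 to 444 CPM (2.76, adjusted p = 2.7e-06) and Rbfox2 from 173 to 259 (0.60, adjusted p = 0.0058), while Ptbp2 fell from 263 to 209 (-0.31, adjusted p = 0.0128). No relation between the levels of these regulators and exon inclusion was tested.

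By isoform, 4 regulators changed. Elavl1, a stabiliser of messenger RNA, went from Elavl1-003 (67.1% ± 3.13 to 36.2% ± 4.48) to Elavl1-001 (32.16% ± 3.06 to 63.1% ± 4.34) with the same coding sequence, in a gene whose level was not called (121 and 117 CPM, adjusted p = 0.764). Its neuronal relative Elavl4 gained Elavl4-004 (8.70% ± 0.895 to 46.08% ± 10.28). Srsf9, an SR protein, gained a noncoding processed transcript (8.15% ± 1.28 to 38.1% ± 4.49) as its level fell from 74.5 to 43.1 CPM. Srrm1, a splicing coactivator, moved by 16.77 ± 0.961 points (SE) toward Srrm1-001. Srrm2, the most abundant regulator without a call, stood at 51.1% and 56.5% for its leading transcript (edgeR adjusted p = 0.914).

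Of the transcription and chromatin list, Dnmt3a, a DNA methyltransferase, moved to the long Dnmt3a-001 (31.3%, 31.6% and 31.1%, then 52.2%, 57.8% and 64.1%) at the expense of Dnmt3a-005 (30.6% ± 1.05 to 6.37% ± 1.09; edgeR adjusted p = 6.8e-12). Phc1, a Polycomb protein, exchanged transcripts of the same coding sequence, with Phc1-005 at 3.85% ± 1.71 and 41.8% ± 4.39. Foxp1 (adjusted p = 0.0465) and Mxi1 (adjusted p = 0.0189) passed edgeR as well. Pax6, the eye-field homeobox factor, passed both tests but not the 10 points, its largest gain being from 22.8% to 27.8% (edgeR adjusted p = 0.0405). Meis2, a related factor of eye development, was not called by edgeR (29.0% and 41.5% for Meis2-013, adjusted p = 0.631). The log-ratio test called it (adjusted p = 0.0353).

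In energy metabolism, Acly, which makes acetyl-CoA for lipid synthesis, exchanged Acly-001 (42.4% ± 3.53 to 1.14% ± 1.96) for Acly-005 (32.14% ± 2.60 to 73.8% ± 4.35), whose annotated coding sequence is 30 bases longer. Pkm, the pyruvate kinase with M1 and M2 forms, passed both tests but stayed just under 10 points: Pkm-202 took 8.12%, 11.0% and 7.82% at D10 and 21.7%, 19.6% and 15.4% at D25 (edgeR adjusted p = 0.00151), Pkm-201 remaining the major form. Gapdh (75.4% for its leading form at D25, edgeR adjusted p = 0.132), Cdk4 (adjusted p = 0.277) and Rpl7 (adjusted p = 1) were the most abundant uncalled genes of their lists.

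The largest exchanges of all were in genes of mixed roles. Filip1l, named for its likeness to a filamin-binding protein, fell in Filip1l-003 from 91.9%, 89.9% and 88.7% to 11.6%, 19.1% and 3.06% (-78.9 points ± 4.71 SE). Pim2, a survival kinase, gained Pim2-201 from 0.0266%, 24.2% and 23.0% to 93.1%, 96.6% and 93.8%, with D10 replicate 1 apart from its day. Zfp365 moved from its coding Zfp365-001 (88.8% ± 7.33 to 18.6% ± 3.26) to Zfp365-004, annotated as a processed transcript (7.72% ± 6.23 to 78.3% ± 2.91), as its level rose from 18.6 to 186 CPM. Mdm1, a centriole protein needed for photoreceptor survival, gained Mdm1-202 from 0.00371% ± 0.00458 to 64.0% ± 6.11. Gse1 (68.0 points) and BC034090 (64.3 points) completed the 12 with Tenm1, Dmd, Epb41l1, Snx14, Clip2 and Slit2; among these, Snx14 missed the log-ratio test (adjusted p = 0.0508). This order holds for shares of counts. With counts divided by transcript length the gains of Slit2-006, Tenm1-001, Dmd-001, BC034090-009 and Epb41l1-007 were 28.7, 29.7, 23.4, 38.1 and 40.2 points, below those of Git1-001 (55.7), Bin1-201 (55.6) and Wdr35-001 (54.8).

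For 244 of the 286 changed genes both exchanged transcripts had a matching structure in GENCODE M21. They differed in splicing in 223, in their start (by over 50 bases) in 158 and in their end in 112, and in 50 the splicing alone differed. In 189 both had an annotated coding sequence and these differed, the rising form having the longer one in 117 and the shorter in 70. Some annotated coding sequences are very short, such as 12 bases in the rising form of Clasp1 against 4356 in the falling one. These counts therefore describe the annotation and not proteins. Where the lengths differed by 3 to 60 bases, the rising form was the longer in 42 and the shorter in 13. The transcript with the largest rise was noncoding and that with the largest fall coding in 15, and the reverse held in 16. Such shifts can be partial.

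Over all counts of members, protein-coding transcripts took 84.1% ± 0.282 at D10 and 85.7% ± 1.22 at D25, and retained-intron transcripts 7.65% ± 0.289 and 6.55% ± 0.802 (SD, n = 3, exact permutation test, two-sided p = 0.2 for both). Transcripts marked for nonsense-mediated decay took 3.56% and 3.38% (exact p = 0.4) and processed transcripts 4.06% and 3.80% (exact p = 0.1), and 0.1 is the smallest p that 3 against 3 libraries allow. Of the 286 changed genes, 156 also rose and 64 fell in level (76.9% with a level call, against 61.3% of all members). Rising genes made up 54.5% of them, against 30.1% of all members tested (1754 rose and 1821 fell). In 107 of the 286 the level stayed within 0.5 on the log2 scale.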

How the data were processed

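The authors deposited estimated counts per Ensembl transcript, made with Trimmomatic 0.36 and kallisto 0.42.4 on GRCm38.p4, per the submitters' processing notes. The gene signal they deposited, CPM after scaling, served only for an alternative of the member rule. In all, 9 columns that match no sample were not used. CPM was computed here per gene as the sum of its transcripts over the library total.

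Transcript shares were tested with diffSpliceDGE of edgeR 4.0.16 (R 4.3.3), with Simes p per gene and Benjamini-Hochberg adjustment over 9189 genes, at a threshold of 0.05. A second test, chosen after seeing the data, was limma 3.58.1 (trend, robust) on log2((transcript + 0.5)/(rest of gene + 0.5)). Shares of long transcripts are inflated, since counts were not divided by length. Reads of near-identical genes or of short exons were assigned by kallisto and not by junctions seen here, so inclusion is an estimate from whole transcripts. Cassette exons came from GENCODE M21, which matched 95.4% of the 42709 member transcripts in length, start and end, and required 10 counts per library; limma tested log2((inclusion + 0.5)/(skipping + 0.5)). Gene level was tested with edgeR, and DESeq2 1.42.0 served as an alternative. The scripts were tested on simulated data.

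The members and lists were chosen with earlier results of these data known. Named are the 12 genes with the largest share change among those called without overlap of the days, up to 4 called members per list and its most abundant uncalled one, the 8 microexons and 6 longer exons with the largest change, and 32 genes with known isoforms; predicted genes (Gm and number, Rik) are passed over in the first and the exons. Further exons named belong to genes of the lists and were picked after their values were seen. For exons named as called, a lack of overlap between the days is a description and no further support. Alternatives covered scaling, filters, tests, the replicate number as a block, the library sets and each library left out.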

Additional observations from a re-analysis of the deposited data

How the results depend on the processing

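No value of the 96 results recomputed (82 genes and the 14 exons with the largest changes) reversed under any alternative; other exons named were not recomputed. With replicates 1 and 3 only, 26 of them lost their call, and without D10 replicate 1, 20. Other usage tests called more: voom gave 1134 genes, 765 of them with 10 points and 288 with another leading transcript, and 2369 transcripts (1283 higher, 1086 lower). DESeq2 gave 1195, 806 and 284 genes and 2557 transcripts (1239 and 1318), and edgeR in its newer form 1281, 804 and 283 genes and 2437 transcripts (1196 and 1241). The log-ratio test gave 1307 transcripts (682 and 625). A minimum of 20 points left 236 genes called by edgeR. Leaving out each library in turn gave 142 to 222 genes by both tests, 385 to 482 exons (277 to 350 higher and 108 to 134 lower) and 85 to 108 higher and 3 to 6 lower microexons; the edgeR count ranged from 415 to 553 genes. With replicates 1 and 3 only, 0 genes passed both tests, and 204 exons were called (150 higher, 54 lower; 60 and 3 microexons). Fewer libraries enter these fits.

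Same-numbered libraries of the days did not deviate together (correlations -0.08, -0.038 and 0.106 over 20026 transcripts), and not every library correlated best with its own number. With the replicate number as a block, 400 genes were called by edgeR, 92 by both tests with 10 points, and 406 exons (290 higher and 116 lower, with 93 higher and 5 lower microexons). Level calls (10046 in the main fit) ranged from 8599 to 10363, and the shares of transcript types kept their direction. Depth limits low transcripts: a transcript at 5% of a gene at 10 CPM rests on few counts.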
